A study of Mus musculus with 12 samples.

Results

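The 10 sialyltransferase genes described here are St3gal1, St3gal2, St3gal4, St3gal6, St6gal1, St6galnac4, St6galnac6, St8sia1, St8sia4 and St8sia6. They were taken by symbol from the 14323 genes of the count table. The set was chosen by its measured response to anti-CD3, under which St8sia6 is lower than nearly any other gene in these cells, so the response of the 10 genes to anti-CD3 is given as a description without a test. The cells were splenic CD8+ T cells of 3 adult wild type mice, sorted as naïve (CD44-), and each well of 100000 cells was cultured for 6 h before RNA sequencing. Each mouse gave 1 library in each of 4 conditions, 12 libraries in all. In unstimulated isotype wells the coat held isotype controls for both antibodies, and in unstimulated anti-LAIR-1 wells it held the agonistic antibody 2C7 to LAIR-1 at 2.5 µg/ml with the isotype of anti-CD3. Stimulated isotype wells were coated with 2.5 µg/ml of an antibody to CD3ε and 2.5 µg/ml isotype, and stimulated anti-LAIR-1 wells with 2.5 µg/ml of each active antibody. LAIR-1 is an inhibitory receptor for collagen on leukocytes, and in this design it was engaged by plate-bound antibody without its natural ligand, in cells kept without antigen-presenting cells.

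Sialyltransferases sit in the Golgi membrane and move sialic acid from the donor CMP-sialic acid to the end of a glycan on a glycoprotein or glycolipid. The family is named by the bond it makes: ST3GAL enzymes form alpha2,3 links to galactose, ST6GAL and ST6GALNAC enzymes form alpha2,6 links to galactose or N-acetylgalactosamine, and ST8SIA enzymes form alpha2,8 links to a sialic acid that is already there. In T cells these sugars cover CD43, CD45 and CD8, are part of the ligands of selectins and Siglecs, and are known to be remodelled when naïve cells are activated.

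All 10 genes are protein coding in the GENCODE annotation of GRCm38 (mm10). St3gal1 lies on chromosome 15 (67102875 to 67176830, minus strand), St3gal2 on chromosome 8 (110919922 to 110972480, plus) and St3gal4 on chromosome 9 (35046576 to 35119268, minus). St6gal1 (23224740 to 23360350, plus) and St3gal6 (58468125 to 58524243, minus) are both on chromosome 16. St6galnac4 (32587095 to 32599698, plus) and St6galnac6 (32599709 to 32620806, plus) are neighbours on chromosome 2, with 10 bases between the end of the first and the start of the second. St8sia6 is also on chromosome 2 (13651021 to 13794064, minus), St8sia1 is on chromosome 6 (142821545 to 142964452, minus) and St8sia4 on chromosome 1 (95587682 to 95667571, minus). Whether counting used the strand is not stated, so reads from a gene on the other strand that shares exon bases cannot be told apart. Such an overlap exists for St8sia6, St8sia1, St6gal1, St3gal4 and St3gal6. The partners of the first 3 had no row of their own, and the partners of St3gal4 and St3gal6 (4930581F22Rik and Dcbld2) had at most 9 and 5 counts per library.

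The DNA just upstream of genes that were lower or higher together is shown for 5 members, as the 250 bases that end at the RefSeq start of a transcript (GRCm38.p6, written 5′ to 3′ on the strand of the gene). The set holds 4 genes that were lower with anti-CD3 and St6galnac4, which was higher. Windows were found for 8 of the 10 members. The windows of St8sia6, St3gal4 and St6galnac6 and the second of 2 windows of St3gal6 overlap exons and are not printed. Capitals mark matches, on either strand, to 3 short motifs: CACGTG (the E-box bound by MYC), TGANTCA and GGAAAA (a core of NFAT sites). TGANTCA is the AP-1 site, TGACTCA or TGAGTCA, widened to any base at its centre.
St8sia4, chr1:95667595-95667844, minus strand: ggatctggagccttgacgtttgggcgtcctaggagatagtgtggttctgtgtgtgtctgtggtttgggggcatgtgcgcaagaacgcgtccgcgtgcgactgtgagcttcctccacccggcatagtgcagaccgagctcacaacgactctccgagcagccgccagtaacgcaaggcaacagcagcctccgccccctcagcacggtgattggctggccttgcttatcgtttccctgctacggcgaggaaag
St8sia1, chr6:142964453-142964702, minus strand: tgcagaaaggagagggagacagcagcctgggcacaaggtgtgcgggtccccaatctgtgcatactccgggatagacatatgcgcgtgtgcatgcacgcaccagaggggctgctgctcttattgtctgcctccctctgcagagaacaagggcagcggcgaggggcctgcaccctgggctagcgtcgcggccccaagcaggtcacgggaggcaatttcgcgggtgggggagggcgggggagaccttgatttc
St3gal6, chr16:58524254-58524503, minus strand: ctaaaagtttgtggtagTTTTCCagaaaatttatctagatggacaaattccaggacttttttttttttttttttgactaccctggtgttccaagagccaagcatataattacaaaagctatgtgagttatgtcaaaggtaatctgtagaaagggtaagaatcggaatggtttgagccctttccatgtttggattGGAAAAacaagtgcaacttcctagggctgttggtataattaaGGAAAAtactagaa
St6gal1, chr16:23290220-23290469, plus strand: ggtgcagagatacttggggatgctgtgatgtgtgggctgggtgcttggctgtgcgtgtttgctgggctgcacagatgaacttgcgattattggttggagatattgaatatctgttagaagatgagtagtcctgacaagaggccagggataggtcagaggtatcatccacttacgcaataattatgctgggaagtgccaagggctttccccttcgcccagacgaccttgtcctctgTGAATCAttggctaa
St6galnac4, chr2:32586828-32587077, plus strand: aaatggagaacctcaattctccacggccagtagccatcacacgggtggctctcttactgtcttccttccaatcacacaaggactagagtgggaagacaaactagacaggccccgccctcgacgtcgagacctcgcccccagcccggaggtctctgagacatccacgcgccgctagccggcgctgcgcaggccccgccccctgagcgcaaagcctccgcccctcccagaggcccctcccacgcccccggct
The printed St3gal6 window held GGAAAA 3 times and its other window 1 time, and this motif occurs in 20.4% of 32851 mouse promoter windows of the same length. For St6gal1 the third of its 3 windows is printed because it held 1 match to TGANTCA, a motif found in 6.7% of windows, while its other 2 windows held no match. That match, TGAATCA, has neither centre base of the AP-1 site. No match to the 3 motifs occurred in the windows of St8sia4, St8sia1 or St6galnac4, and CACGTG, present in 6.0% of windows, was in none of the 5. No 2 matches overlapped. The bases C and G made up 34.8% of the printed St3gal6 window with 1 CG dinucleotide and 64.4% of its other window with 16, against 60.4% and 19 for St8sia4, 63.6% and 14 for St8sia1 and 65.2% and 19 for St6galnac4, where the median window had 52.4% and 6.

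Library totals ranged from 1781218 to 7725545 counts, the highest of them in stimulated wells, so that 3 counts were worth 0.388 to 1.68 CPM, a unit that scales counts to the library total. Levels are given in CPM normalised by the trimmed mean of M values (TMM), and differences are log2 fold changes from edgeR ± SE. The SE was derived from the test, as the absolute log2 fold change divided by the square root of its F statistic. For members with anti-CD3 it is given as a description only. Each library is bulk RNA, so fewer cells of a type and less RNA per cell cannot be told apart. All 7 markers of CD8+ T cells were detected in each condition, with sums of 3572 to 3989 CPM in unstimulated and 2054 to 2822 CPM in stimulated libraries. Of 8 B cell markers 3 had no row, and the sum of the rest was 3.86 to 9.46 CPM unstimulated and 1.36 to 4.61 CPM stimulated, with Ms4a1 and Cd22 at or below 0.536 CPM in each library. Summed markers of CD4+ T cells, myeloid cells and erythroid cells or platelets stayed at or below 5.78 CPM, and those of NK cells lay between 23.2 and 49.5 CPM, nearly all of it from Eomes, which CD8+ T cells also express. Genes known to answer T cell receptor signals early summed to 188 to 222 CPM unstimulated and 1915 to 2477 CPM stimulated. Another scaling moved the median change of all genes with anti-CD3 from -0.03 to -0.20 (isotype) and from -0.04 to -0.24 (anti-LAIR-1), and no direction given for a member with anti-CD3 depended on it.

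Stimulation with anti-CD3 went with a lower summed level of the alpha2,8 genes and a higher one of the alpha2,3 genes. Summed over the 3 alpha2,8 genes, 72.6 ± 9.58 CPM (SD, n = 3) in the unstimulated isotype libraries stood against 6.36 ± 0.643 CPM in the stimulated ones. The 4 alpha2,3 genes summed to 131 ± 19.1 CPM unstimulated and 305 ± 20.6 CPM stimulated. Most of that sum was St3gal1 (means of 98.0 and 276 CPM), with St3gal4 also higher (15.2 and 23.8 CPM). Within it St3gal6 was lower (16.2 and 3.10 CPM), and St3gal2 had few counts (2.03 and 1.35 CPM). The 3 alpha2,6 genes summed to 127 ± 9.61 and 169 ± 15.4 CPM, a sum that hides a lower St6gal1 and a higher St6galnac4. In isotype wells all 8 members with enough counts for the fit had stimulated and unstimulated libraries that did not overlap, 3 of them higher and 5 lower, where 73.4% of the 8690 genes fitted did not overlap (36.6% higher and 36.8% lower). In anti-LAIR-1 wells 3 members were again higher and 5 lower without overlap, where 74.8% of 9000 genes did not overlap (37.4% higher and 37.4% lower). These shares are given only as the background of a response that was used to choose the genes.

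**Figure D1:**
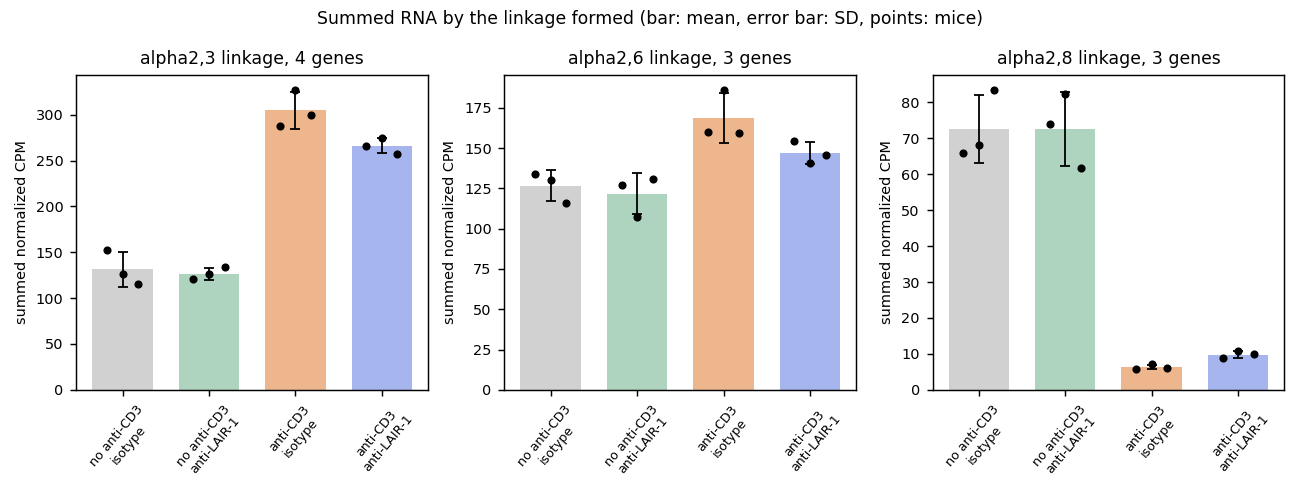
Summed normalised CPM (y axis) of the 4 alpha2,3, 3 alpha2,6 and 3 alpha2,8 genes in the 4 conditions (x axis). Bars are means, error bars SD and points the 3 mice. The alpha2,8 sum was 61.8 to 83.6 CPM in unstimulated and 5.84 to 10.7 CPM in stimulated libraries.

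St8sia6, which adds a second sialic acid mainly to O-glycans and makes ligands for Siglecs, was close to undetectable after stimulation. The unstimulated isotype libraries held 67, 52 and 38 counts in mice 1 to 3 (22.2, 20.6 and 20.0 CPM). The stimulated isotype libraries, which were deeper, held 1, 1 and 0 counts. No stimulated library came near an unstimulated one. Over the 3 mice, 157 against 2 counts gave a ratio of 166 in the rate per total count, with a 95% exact interval of 45.3 to 1380 that covers counting error only. In anti-LAIR-1 wells the counts were 81, 73 and 48 (22.3, 19.2 and 12.9 CPM) unstimulated and 3, 1 and 2 stimulated, a ratio of 59.3 (26.8 to 163) from 202 against 6 counts. The fitted change with anti-CD3 was the lowest of all 8690 genes in isotype wells and the second lowest of 9000 in anti-LAIR-1 wells, but with so few counts its size depends on the prior count.

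St8sia4 encodes a polysialyltransferase, which builds long chains of sialic acid. Its level was 20.6, 23.8 and 31.5 CPM in the unstimulated isotype libraries and 2.15, 1.07 and 1.46 CPM in the stimulated ones, from 7, 5 and 9 counts. The anti-LAIR-1 libraries held 26.2, 30.5 and 24.6 CPM unstimulated and 2.57, 2.55 and 2.96 CPM stimulated. The groups were far apart in both arms, with log2 differences of -4.10 ± 0.32 (isotype) and -3.35 ± 0.22 (anti-LAIR-1). St8sia1, the GD3 synthase, which starts the b-series of gangliosides, was at 23.2, 23.8 and 32.1 CPM unstimulated and 3.38, 5.79 and 4.70 CPM stimulated with isotype. With anti-LAIR-1 its levels were 25.4, 32.6 and 24.4 CPM unstimulated and 5.83, 7.99 and 6.56 CPM stimulated. The log2 differences with anti-CD3 were -2.53 ± 0.26 and -2.04 ± 0.20.

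St6gal1 places alpha2,6-linked sialic acid on the galactose of N-glycans and so makes the preferred ligand of CD22. Unstimulated isotype libraries held 123, 117 and 99.4 CPM, and their stimulated counterparts 10.1, 11.6 and 13.6 CPM. In the anti-LAIR-1 arm 120, 101 and 117 CPM stood against 16.4, 19.2 and 22.2 CPM. The differences of -3.31 ± 0.15 and -2.58 ± 0.13 on the log2 scale left a gap between groups many times the spread among mice. B cells express St6gal1, and the summed B cell markers, given above, were also lower in stimulated than in unstimulated libraries. That sum was at most 9.46 CPM in any library, but it does not measure how much St6gal1 RNA came from B cells. The part of B cells in the difference was not tested.

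The other alpha2,6 genes of the set, St6galnac4 and St6galnac6, did not share that direction. St6galnac3, which is outside the set and is described below, was lower as well. St6galnac4 adds sialic acid to the N-acetylgalactosamine of O-glycans that already carry an alpha2,3-linked sialic acid, which completes the disialylated core 1 structure. It had 8.96, 13.5 and 15.2 CPM in unstimulated isotype libraries and 148, 172 and 143 CPM in stimulated ones, a log2 difference of 3.58 ± 0.17. In anti-LAIR-1 wells 6.89, 5.79 and 13.7 CPM compared with 135, 119 and 122 CPM, a difference of 3.82 ± 0.18. Its neighbour St6galnac6, which acts on gangliosides, had 1 to 5 counts in each unstimulated library and 5 to 20 in each stimulated one. Those counts were too few for the anti-CD3 fits. As rates per total count, unstimulated over stimulated gave 0.424 (95% exact interval 0.171 to 0.917) with isotype and 0.135 (0.0268 to 0.426) with anti-LAIR-1, counting error only. The isotype groups overlapped, with 1.66 CPM unstimulated and 1.54 CPM stimulated in mouse 1, from 5 counts each.

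St3gal1 caps core 1 O-glycans with alpha2,3-linked sialic acid, the step that supplies the substrate of St6galnac4, and both genes were higher after stimulation. St3gal1 stood at 120, 95.5 and 78.3 CPM in unstimulated isotype libraries and at 256, 300 and 273 CPM in stimulated ones. The anti-LAIR-1 libraries held 100.3, 99.0 and 101 CPM unstimulated and 233, 244 and 220 CPM stimulated. The log2 differences were 1.41 ± 0.12 and 1.20 ± 0.08. St3gal4, which acts on lactosamine ends and contributes to selectin ligands, was higher by less. Its isotype libraries had 13.6, 13.1 and 18.9 CPM unstimulated and 24.9, 23.6 and 22.8 CPM stimulated, a log2 difference of 0.59 ± 0.21. With anti-LAIR-1 it had 6.34, 14.2 and 15.5 CPM against 24.8, 24.1 and 28.3 CPM, a difference of 1.07 ± 0.22.

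St3gal6, an enzyme with substrates similar to those of St3gal4, was lower. In isotype wells 16.3, 15.1 and 17.4 CPM unstimulated stood against 4.30, 3.22 and 1.78 CPM stimulated (-2.54 ± 0.32 log2). In anti-LAIR-1 wells 11.9, 9.74 and 15.8 CPM stood against 6.78, 4.76 and 9.31 CPM (-0.88 ± 0.27 log2), so that the highest stimulated library was only just below the lowest unstimulated one. St3gal2, which acts on the same O-glycans as St3gal1 and on gangliosides, had 0 to 13 counts per library (0 to 3.16 CPM) and was not fitted in any comparison. Its 4 groups overlapped, with means of 2.03, 2.14, 1.35 and 0.871 CPM in the order of the conditions above. At this depth no difference between conditions was detectable for it in the isotype arm (18 stimulated against 16 unstimulated counts, ratio of unstimulated over stimulated 1.88, 95% exact interval 0.898 to 3.91). In the anti-LAIR-1 arm 18 against 24 counts gave 2.35 (1.22 to 4.59, counting error only), and 1 of the 3 stimulated libraries had 0 counts.

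**Figure D2:**
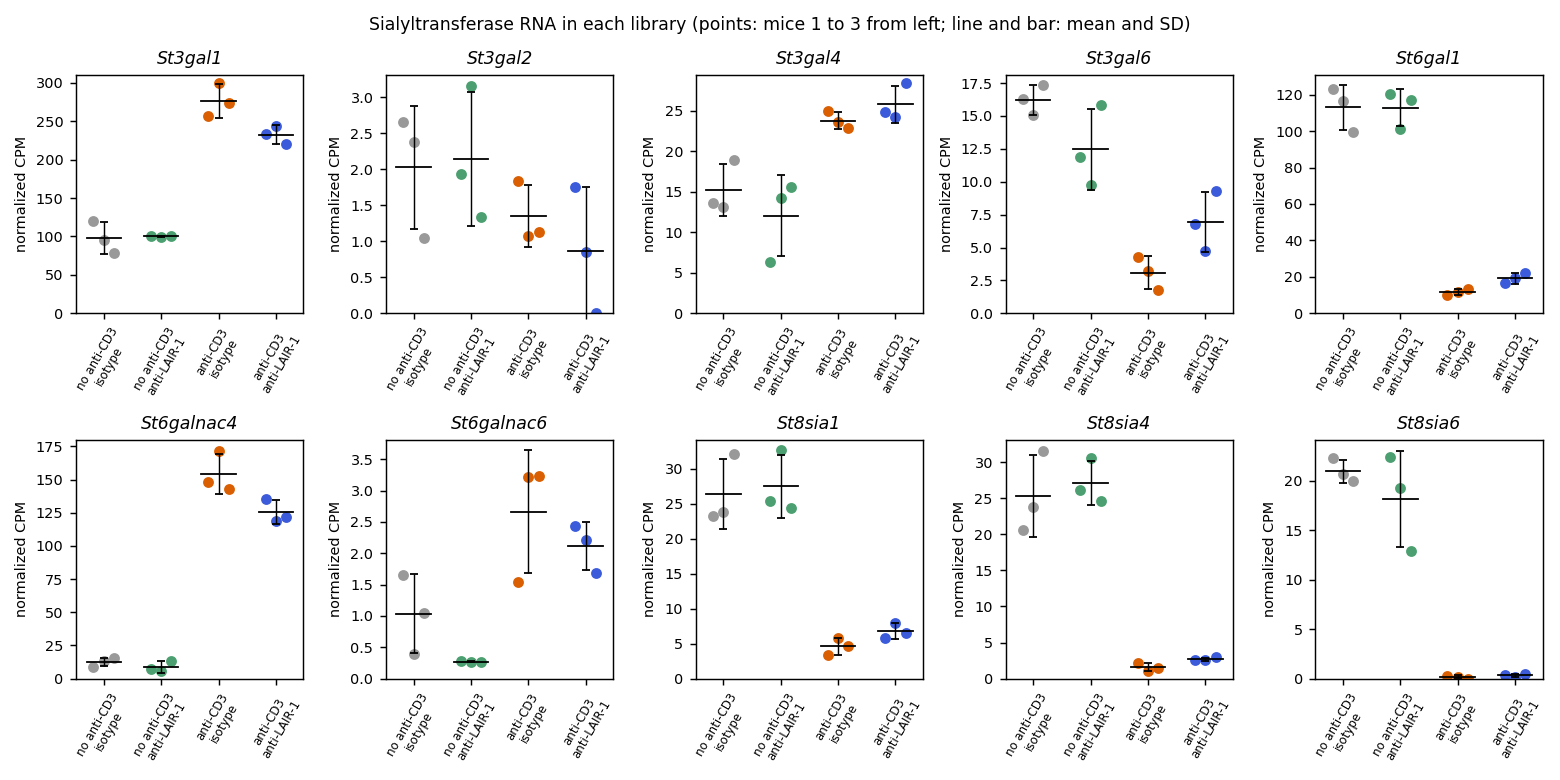
Normalised CPM (y axis, starting at 0, scale differs between genes) of each of the 10 genes in the 4 conditions (x axis), with points for mice 1 to 3 from left and a line and bar for the mean and SD. St8sia6 lies between 12.9 and 22.3 CPM in unstimulated libraries and at or below 0.423 CPM in stimulated ones, while St6galnac4 lies at or below 15.2 CPM in the former and at 119 CPM or more in the latter.

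Whether LAIR-1 ligation changed these genes during stimulation was tested by comparing the 3 stimulated anti-LAIR-1 libraries with the 3 stimulated isotype libraries. The latter are also one side of the anti-CD3 differences given above, so both sets of values are not independent. St6gal1 was the 1 member of 8 tested that changed, where 5.76% of all 8800 genes did, a count too small to set apart from that background. It was 1.60-fold higher with anti-LAIR-1, by 0.68 ± 0.19 on the log2 scale (edgeR quasi-likelihood test, adjusted p = 0.0392). The difference was 0.67, 0.71 and 0.69 in mice 1 to 3, and the lowest library with anti-LAIR-1 (16.4 CPM) was above the highest with isotype (13.6 CPM). Blocking on the mouse gave an adjusted p of 0.0199 in edgeR. The call was lost in DESeq2 (adjusted p = 0.0842, or 0.274 with the block) and without mouse 1 or 2 of the stimulated isotype or mouse 2 or 3 of the stimulated anti-LAIR-1 libraries (0.105 to 0.142 in edgeR). Summed CD8+ T cell markers were also higher with anti-LAIR-1 (2461 to 2822 CPM) than with isotype (2054 to 2226 CPM), and 3 of the 7 passed (Cd3g, Cd3d and Cd3e, by 0.45 to 0.54 on the log2 scale, and with the block also Lck), whereas the B cell sum was 1.36 to 3.38 against 2.14 to 4.61 CPM. Of 6 early response genes Ifng (-1.44 ± 0.17) and Il2ra (-0.49 ± 0.08) were lower with anti-LAIR-1. What part these have in the St6gal1 difference was not tested.

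The other 7 members did not pass in edgeR. St3gal6 was higher with anti-LAIR-1 by 1.24 ± 0.36 (adjusted p = 0.0508 in edgeR), with differences of 0.60, 0.50 and 2.12 in mice 1 to 3, the last from 11 and 44 counts. St8sia4 differed by 0.83 ± 0.42 (adjusted p = 0.298) and St8sia1 by 0.52 ± 0.28 (adjusted p = 0.322), with the 3 libraries of each group apart from those of the other. St3gal1, at -0.25 ± 0.08 (adjusted p = 0.0717), and St6galnac4, at -0.29 ± 0.09 (adjusted p = 0.0673), had each library with anti-LAIR-1 below each library with isotype. The values for St3gal4 (0.12 ± 0.14, adjusted p = 0.718) and St6galnac6 (-0.37 ± 0.40, adjusted p = 0.697) came from overlapping groups. St8sia6 was not fitted, with 6 counts against 2 in the 3 libraries of each group. In all, 4 members did not overlap and were higher and 2 did not overlap and were lower, where 12.5% and 11.7% of all genes did so, and the median over the 8 members was 0.32 against 0.00 over all genes.

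In unstimulated cells anti-LAIR-1 left no member past the threshold. None of the 8 members tested passed in edgeR, as for all 8770 genes (0%), of which 384 or 4.38% had an unadjusted p under 0.05, a level that none of the 8 members reached. The libraries of both groups overlapped for each of the 8, where 9.61% of all genes did not overlap. The member differences ran from -0.51 ± 0.33 for St6galnac4 to 0.11 ± 0.19 for St8sia4, with St3gal6 at -0.39 ± 0.24, St8sia6 at -0.23 ± 0.22 and St6gal1 at -0.03 ± 0.11 (adjusted p of 0.997 or above in edgeR). DESeq2 also called 0 members.

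**Figure D3:**
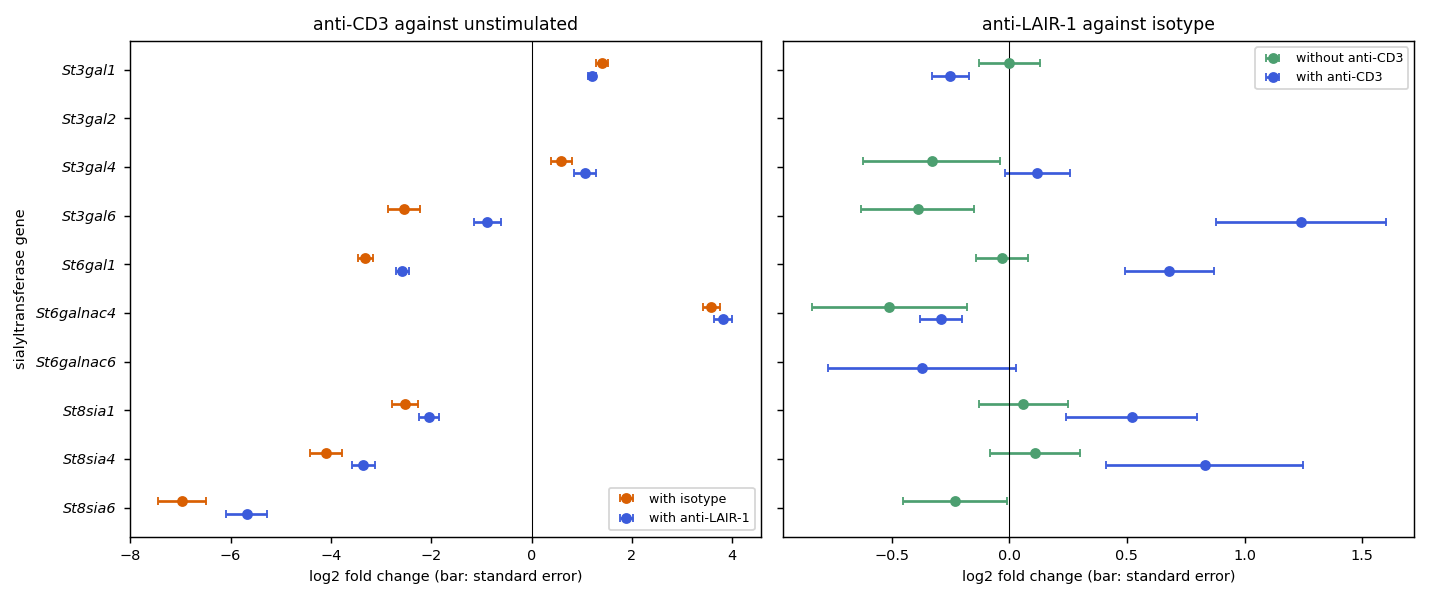
Log2 fold changes (x axis) with their standard errors for each gene (y axis), with anti-CD3 against unstimulated cells on the left and anti-LAIR-1 against isotype on the right. Genes without a point were not fitted. The right axis is narrower than the left: with anti-CD3, anti-LAIR-1 gave values from -0.37 to 1.24, where anti-CD3 itself gave -6.96 to 3.82.

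The difference between the effects of anti-LAIR-1 with and without anti-CD3 was tested as an interaction over all 12 libraries. It is also the difference between the anti-CD3 responses of the isotype and anti-LAIR-1 wells. Those responses were used to choose the genes, so the p-values of members here are not independent of that choice. St3gal6 passed, at 1.64 ± 0.43 (edgeR, adjusted p = 0.0408, 0.0365 with the mouse as a block), and was the 1 of 8 members to do so, where 2.07% of 9223 genes passed. The same difference was 1.04, 1.11 and 2.25 in mice 1 to 3. It combines a value of 1.24 ± 0.36 in stimulated and of -0.39 ± 0.24 in unstimulated cells, neither of which passed on its own. The adjusted p was 0.0412 in DESeq2 and rose to between 0.0642 and 0.164 in edgeR when any 1 of 9 of the 12 libraries was left out. The 3 libraries without which St3gal6 still passed were mouse 3 of unstimulated anti-LAIR-1, mouse 1 of stimulated isotype and mouse 2 of stimulated anti-LAIR-1. St6gal1 had an interaction of 0.70 ± 0.20 (adjusted p = 0.0704 in edgeR), with 0.70, 0.91 and 0.45 in the 3 mice, and passed without mouse 3 of unstimulated isotype (adjusted p = 0.0497) or mouse 1 of stimulated anti-LAIR-1 (adjusted p = 0.0402). The remaining members ran from -0.24 ± 0.15 for St3gal1 (adjusted p = 0.582) to 1.31 ± 1.01 for St8sia6 (adjusted p = 0.675), and no difference between the arms was shown for them.

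Of the other 10 sialyltransferase genes of the mouse, 6 had a row and 2 were tested with anti-CD3. St6galnac3, which acts on O-glycans and gangliosides, fell from 8.69 ± 0.666 to 1.76 ± 0.232 CPM (SD, n = 3) in isotype wells, by 2.34 on the log2 scale (SE 0.38, adjusted p = 7.6e-06). St3gal3 had a value of -0.30 ± 0.47 (adjusted p = 0.583). St3gal5, the GM3 synthase, on which the gangliosides made by St8sia1 depend, had 0.858 CPM or less in each of the stimulated isotype libraries and 0.396 CPM or less in the unstimulated isotype ones, and was not tested. The rest, St6galnac1, St6galnac2 and St6galnac5, had at most 2 counts in any condition.

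Of 6 tested genes that supply sialic acid, 2 rose and 2 fell with anti-CD3 in isotype wells, where 35.3% of the 8690 genes rose and 36.1% fell. Cmah, which turns N-acetyl into N-glycolyl sialic acid, fell from 419 ± 23.7 to 34.2 ± 0.730 CPM (-3.69 ± 0.11 log2, adjusted p = 1.7e-18), and Cmas, which activates sialic acid to its CMP donor, changed by -0.85 ± 0.11 (adjusted p = 5.3e-07). Slc35a1, the transporter that carries the donor into the Golgi, rose by 0.71 ± 0.26 (adjusted p = 0.0162) and Nans, a sialic acid synthase, by 0.49 ± 0.21 (adjusted p = 0.0396), but neither passed under upper quartile scaling (adjusted p = 0.0652 and 0.182 in edgeR). Gne, the first enzyme of the route, was at 0.42 ± 0.24 (adjusted p = 0.118). Of 4 genes that remove or modify sialic acid, 3 fell, namely the esterase Siae (-3.07 ± 0.42), the membrane sialidase Neu3 (-1.58 ± 0.43) and the O-acetyltransferase Casd1 (-0.50 ± 0.18), and the lysosomal sialidase Neu1 did not pass (-0.15 ± 0.22).

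Among 22 tested genes that build the acceptor glycans, 5 rose and 12 fell, where 35.3% of all 8690 genes rose and 36.1% fell. Under upper quartile scaling 3 rose and 14 fell, beside 2637 and 3616 of all genes. The highest were B4galt5 (1.85 ± 0.21), a galactosyltransferase, C1galt1c1 (1.05 ± 0.31), the chaperone of the core 1 synthase, and Mgat2 (0.52 ± 0.13), which branches N-glycans. The lowest were B3gnt5 (-3.64 ± 0.44), which starts lacto-series glycolipids, B4galt1 (-2.36 ± 0.15), which makes the lactosamine that St6gal1 caps, and Galnt7 (-2.30 ± 0.25), an O-glycan initiating enzyme. Of 10 glycoproteins that carry sialic acid on T cells, 3 rose (Cd44 3.38 ± 0.27, Cd5 1.17 ± 0.10, Cd27 0.85 ± 0.09) and 5 fell, the lowest being Selplg (-3.68 ± 0.11), Cd8b1 (-1.74 ± 0.10) and Cd2 (-1.24 ± 0.10), beside the 35.3% and 36.1% of all genes given above. Of 9 Siglec genes 3 had a row and none was tested.

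**Figure D4:**
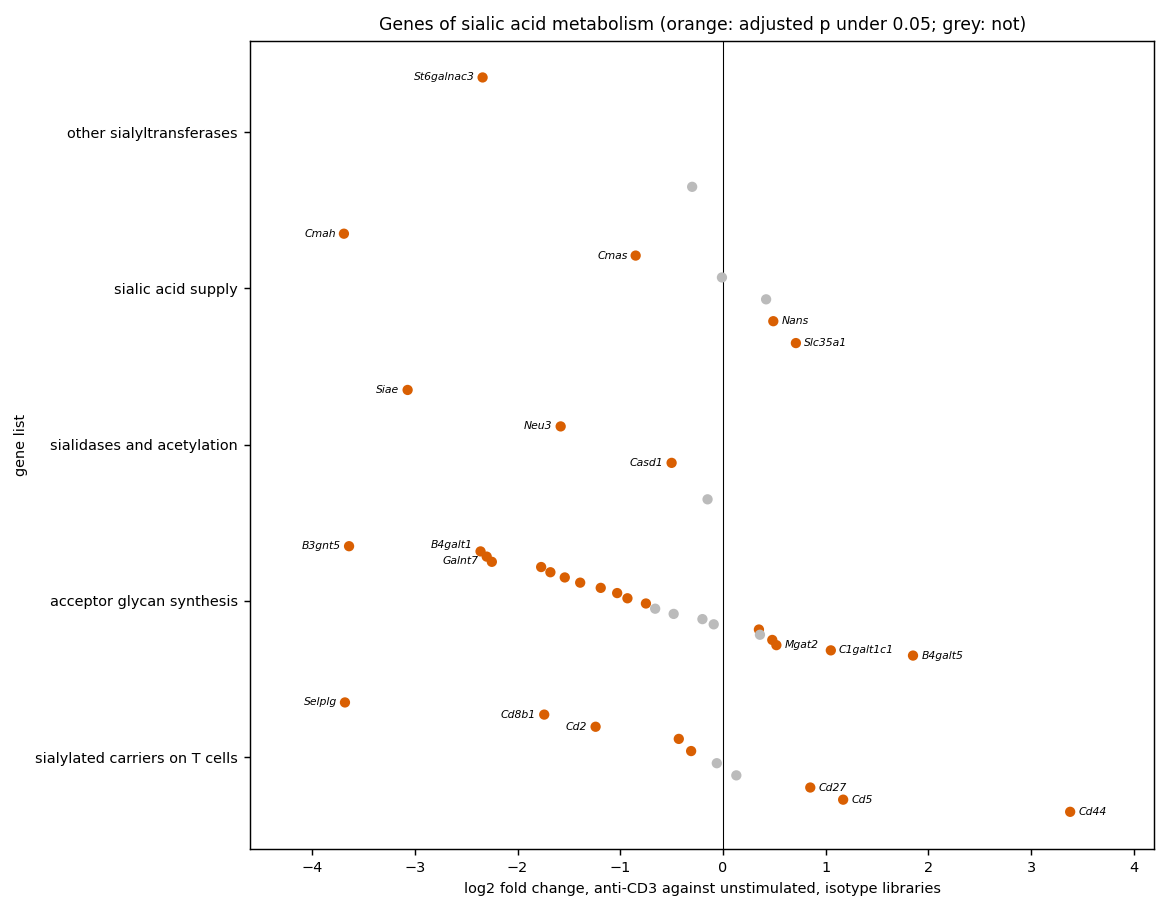
Log2 fold change with anti-CD3 in isotype wells (x axis) of the tested genes in 5 lists around the sialyltransferases (y axis), with points spread vertically within a list for legibility. Orange points passed at an adjusted p under 0.05 and grey points did not, and the 3 lowest and 3 highest genes of each list are named where they passed. Cmah, B3gnt5 and Selplg lie beyond -3.6 and Cd44 at 3.38.

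In stimulated cells 4 of the genes tested in these lists were higher with anti-LAIR-1 and 0 lower. They were 1 of 6 genes of sialic acid supply, 1 of 21 that build acceptor glycans and 2 of 10 glycoproteins. The 1 other sialyltransferase and the 3 genes that remove or modify sialic acid tested here did not pass. Of all 8800 genes 343 (3.90%) were higher and 164 lower. The counts per list are too small to set apart from that background. Cmah was higher by 0.96 ± 0.14 (edgeR, adjusted p = 0.000472), from 34.2 ± 0.730 to 66.9 ± 15.3 CPM (SD, n = 3), against 419 CPM in unstimulated isotype wells. The others were Selplg, the selectin ligand PSGL-1 (0.93 ± 0.10, adjusted p = 3.2e-05), Cd2, an adhesion receptor (0.57 ± 0.08, adjusted p = 0.000331), and B4galnt1, which makes GM2 and GD2 (0.23 ± 0.07, adjusted p = 0.0486, or 0.0552 with the size factors of DESeq2 in edgeR). Cmah (0.92 ± 0.17, adjusted p = 0.00212), Selplg and Cd2 also had an interaction that passed in edgeR. Blocking on the mouse added B4galt1 to the genes that passed in stimulated cells (adjusted p = 0.031, from 0.0794 without the block). Without anti-CD3, 0 genes of the lists passed.

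The genes whose pattern over the 12 libraries was nearest to that of St8sia6, by the root mean square (RMS) difference of centred log2 CPM, were Il7r (0.44), Cd7 (0.46), Arl5c (0.47), Fam101b (0.49) and Rapgef4 (0.56), of 9223 genes. Il7r, the receptor for interleukin-7, had mean levels of 322 and 365 CPM in the unstimulated isotype and anti-LAIR-1 libraries and of 5.55 and 13.9 CPM in the stimulated ones. For St6galnac4 they were Ybx3 (0.28), Srm (0.29), Mthfd2 (0.30), Rrp1b (0.30) and Tnfrsf21 (0.33). Srm, the spermidine synthase, had 96.8 and 83.1 CPM unstimulated and 1402 and 1236 CPM stimulated. For St8sia6 the distances in stimulated libraries rest on 0 to 3 counts and on the prior count of 2.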

How the data were processed

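RNA of naïve CD8+ T cells from 3 mice in 4 conditions was sequenced by a CEL-seq protocol, which reads the 3′ end of transcripts. The authors deposited raw counts per gene symbol, made by BWA MEM alignment of the transcript read of each pair to mm10 transcripts. Multimapping reads are not in the counts. Collapsing of molecular identifiers and use of the strand are not stated. Intervals cover counting error only, and are too narrow even for that if identifiers were not collapsed. Between libraries of the same group, counts varied 3.82 to 5.62 times as much as counting error alone, averaged over genes with enough counts. Comparisons used the quasi-likelihood F-test of edgeR 4.0.16 (with limma 3.58.1 in R 4.3.3) after filterByExpr and TMM scaling, and p was adjusted by Benjamini-Hochberg across each comparison's genes, threshold 0.05. Values per mouse are differences of log2 CPM (prior count 2). Mouse numbers pair libraries by animal. Deviations from the group means correlated between -0.01 and 0.09. DESeq2 (run here as version 1.42.0) was an alternative, since the study names that tool, as were other scalings and filters, thinning, the mouse as a block and leaving out each library. Ratios of counts have 95% Clopper-Pearson intervals. The fits were also run on simulated data with known changes, and the outcome is not given here. The members and gene lists were chosen with earlier results of these data known. Named were all members, list genes past the threshold with anti-LAIR-1 and anti-CD3, the 3 highest and 3 lowest past it with anti-CD3, marker genes, and the 5 genes nearest to St8sia6 and St6galnac4. Promoter windows came from RefSeq. A gene of the marker and glycoprotein lists was left out of them and is not reported here. A few further genes (St3gal3, St3gal5, Gne, Neu1) are named to complete small lists. P-values measure the spread between these 3 mice.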

Additional observations from a re-analysis of the deposited data

Results flagged for a closer look

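St3gal6 was flagged because its interaction of anti-CD3 and anti-LAIR-1 passed the threshold. Neither the stimulated (adjusted p = 0.0508) nor the unstimulated (adjusted p = 0.997) comparison of anti-LAIR-1 with isotype passed in edgeR. The anti-CD3 responses that the interaction compares were also used to choose the genes. The interaction was 1.64 ± 0.43 on the log2 scale (edgeR quasi-likelihood test over 12 libraries, adjusted p = 0.0408). The underlying levels were low, at 1.78 to 4.30 CPM in stimulated isotype and 4.76 to 9.31 CPM in stimulated anti-LAIR-1 libraries, from 11 to 50 counts each. All 3 mice had a positive difference, and it was largest in mouse 3 (2.25), whose stimulated isotype library held the 11 counts. Without that library the value was 1.30 (adjusted p = 0.164). The call was lost in 9 of the 12 edgeR fits that left out 1 library (adjusted p = 0.0642 to 0.164), and after thinning. No group had enough libraries for a test of single outlying values.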

How the results depend on the processing

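With anti-CD3, the count of members whose groups did not overlap was 6 to 9 (isotype) and 7 to 9 (anti-LAIR-1) against 8, and no member changed direction. For anti-LAIR-1 in stimulated cells 1 member passed, against 2 under upper quartile scaling, total counts, at least 10 counts in every library or all 12 libraries in the fit, 4 without a filter on low counts, 0 in DESeq2, 0 in DESeq2 with the mouse as a block, 0 after thinning to the smallest total, and 0 to 1 with each library left out. Leaving out mouse 1 of stimulated isotype or mouse 2 of stimulated anti-LAIR-1 left St3gal6 as the 1 called, in place of St6gal1. St6gal1 passed in 9 of 16 alternatives (log2 0.56 to 0.80, adjusted p = 0.011 to 0.274) and St3gal6 in 7 of 15 (0.00473 to 0.404). For the interaction 1 member passed, against 0 after thinning, 0 in DESeq2 with the block, where St3gal6 had no adjusted p, and 0 to 1 with each library left out. In 2 of those fits the 1 called was St6gal1. St3gal6 passed there in 10 of 20 alternatives (log2 1.02 to 1.89), and without thinned counts or a left-out library in each that gave it an adjusted p. The cause of these changes was not tested. Thinning removes counts by construction. In edgeR the block for the mouse left the count of calls at 1 for anti-LAIR-1 with anti-CD3 and at 1 for the interaction, and changed no other call of a member.

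No sign turned for a member that passed. Without anti-CD3, the St3gal1 value of -0.00 became 0.01 (upper quartile), 0.00 (total counts, DESeq2, no filter, at least 10 counts), 0.01 (block in edgeR), 0.02 (block in DESeq2) and 0.02 (thinned), and -0.12 to 0.16 with a library left out. St6gal1 became 0.03 and St8sia4 -0.04 when thinned, with ranges of -0.10 to 0.04 and -0.05 to 0.28 for left-out libraries, and St8sia1 ranged from -0.09 to 0.21. In the interaction St8sia6 (1.31 ± 1.01) became -2.57 when thinned and St6galnac4 ranged from -0.03 to 0.67. The depth limits St3gal2, St6galnac6 and stimulated St8sia6 most.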
